A study of Mus musculus with 6 samples.

Results

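SR proteins are nuclear RNA-binding proteins with a tail rich in arginine and serine. They bind exonic enhancer sequences in pre-mRNA and help the U1 and U2 snRNPs to recognise the neighbouring splice sites. CLK kinases phosphorylate the arginine-serine tail in the nucleus, which releases SR proteins from nuclear speckles, and cyclins L pair with CDK11 kinases that also act on splicing. Many genes of this family carry a conserved poison exon or a detained intron, so that a change in their own splicing changes how much productive mRNA they give.

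The genes described here are the rows of the deposited expression table whose symbol is Srsf, Rbm or Prpf followed by a number, Srrm followed by a digit, Clk1 to Clk4, Luc7l, Luc7l2 or Luc7l3, Tra2a, Tra2b, Ccnl1, Ccnl2, Rsrp1 or Paxbp1, with a mean of at least 1 FPKM (fragment counts scaled by gene length and library depth) over the 6 libraries. The table holds 21878 genes, 68 of which match these patterns, and 60 pass the minimum. These members are 10 Srsf genes, 2 Tra2 genes, 2 Srrm genes, 4 Clk genes, 2 cyclins L, 3 Luc7l genes, 8 Prpf genes, 27 Rbm genes, Rsrp1 and Paxbp1. The family was chosen by its FPKM differences between the media, where it had been seen to rise. The members' own differences, and the limma calls given for them below, are therefore a description and not a test of the family. Of the other 8 matching rows, Rbm4 had the highest mean and lay just outside the minimum (0.820, 0.608 and 0.773 FPKM in DMEM and 0.477, 0.591 and 0.560 FPKM in RPMI-1640), followed by Srrm3 with at most 0.160 FPKM in any library. Just inside were Rbm11 (1.62, 2.34 and 1.68 FPKM in DMEM, 1.55, 1.51 and 0.962 FPKM in RPMI-1640) and Rbm41 (1.47, 1.59 and 1.09 FPKM in DMEM, 2.48, 2.54 and 2.21 FPKM in RPMI-1640). Srsf12, Srrm4, Rbm24, Rbm44, Rbm46 and Rbm47 were at or near 0.

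The cells were B16F10, an established melanoma line from mouse, labelled wild type, with time 0, in every library. They were kept in DMEM (3 libraries, whose titles also carry the unexplained code HG) or in RPMI-1640 (3 libraries), each with 10% fetal bovine serum and antibiotics. The labels also describe an adipogenic induction with dexamethasone, isobutylmethylxanthine and insulin, without saying whether it was applied to these libraries. A title code of 3 marks every DMEM library and a code of 1 every RPMI-1640 library, and its effect and that of the medium cannot be told apart. Separate cultures are not mentioned for the replicates. The errors and p-values below therefore measure how far single libraries differ, which may be technical spread.

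Total reads recovered from the steps of the FPKM values ran from 36960000 to 46404000 per library. A member had between 59 reads (Rbm11) and 36070 reads (Prpf8) in a library. Melanocyte markers were abundant: the summed level of Mitf, Sox10, Tyr, Tyrp1, Dct, Pmel and Mlana was 13000 to 13200 FPKM in DMEM and 10700 to 10800 FPKM in RPMI-1640, with 2 of the 7 genes higher and 3 lower in RPMI-1640. Of 6 immune markers 5 were at 0 in every library, as were 4 of 4 keratinocyte, 2 of 4 endothelial and 3 of 6 adipocyte markers. The other immune marker, Cd68, stood at 2.63, 2.43 and 2.76 FPKM in DMEM and at 1.75, 1.66 and 1.8 FPKM in RPMI-1640. The 7 fibroblast markers summed to 1.21 to 1.49 FPKM in DMEM and 3.61 to 4.3 FPKM in RPMI-1640, with Dcn and Thy1 at 0 in every library, and Col1a2 was the only fibroblast marker above the minimum. Its part in the differences below was not tested.

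Most members were higher in RPMI-1640. In limma, fitted to log2(FPKM + 1) of all 10624 genes above the minimum, 47 of the 60 members passed as higher in RPMI-1640 (adjusted p under 0.05), against 40.6% of all tested genes, 7 passed as lower, against 35.4%, and 6 did not pass. In either direction 54 members passed, against 76% of tested genes. The contrast chose the members, so nothing is read from these shares. The median log2 fold change, RPMI-1640 minus DMEM, was 0.50 for the members and 0.03 for all tested genes, and 9 members changed by at least 1 (15% of members, 3.52% of tested genes). Summed over the 60 members, expression was 2115, 2074 and 1993 FPKM in the DMEM libraries and 2875, 2835 and 2717 FPKM in the RPMI-1640 libraries. The sums of the media did not overlap, and the mean was 1.36-fold higher in RPMI-1640. In bulk RNA, more cells with a transcript and more transcript per cell cannot be told apart.

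**Figure D1:**
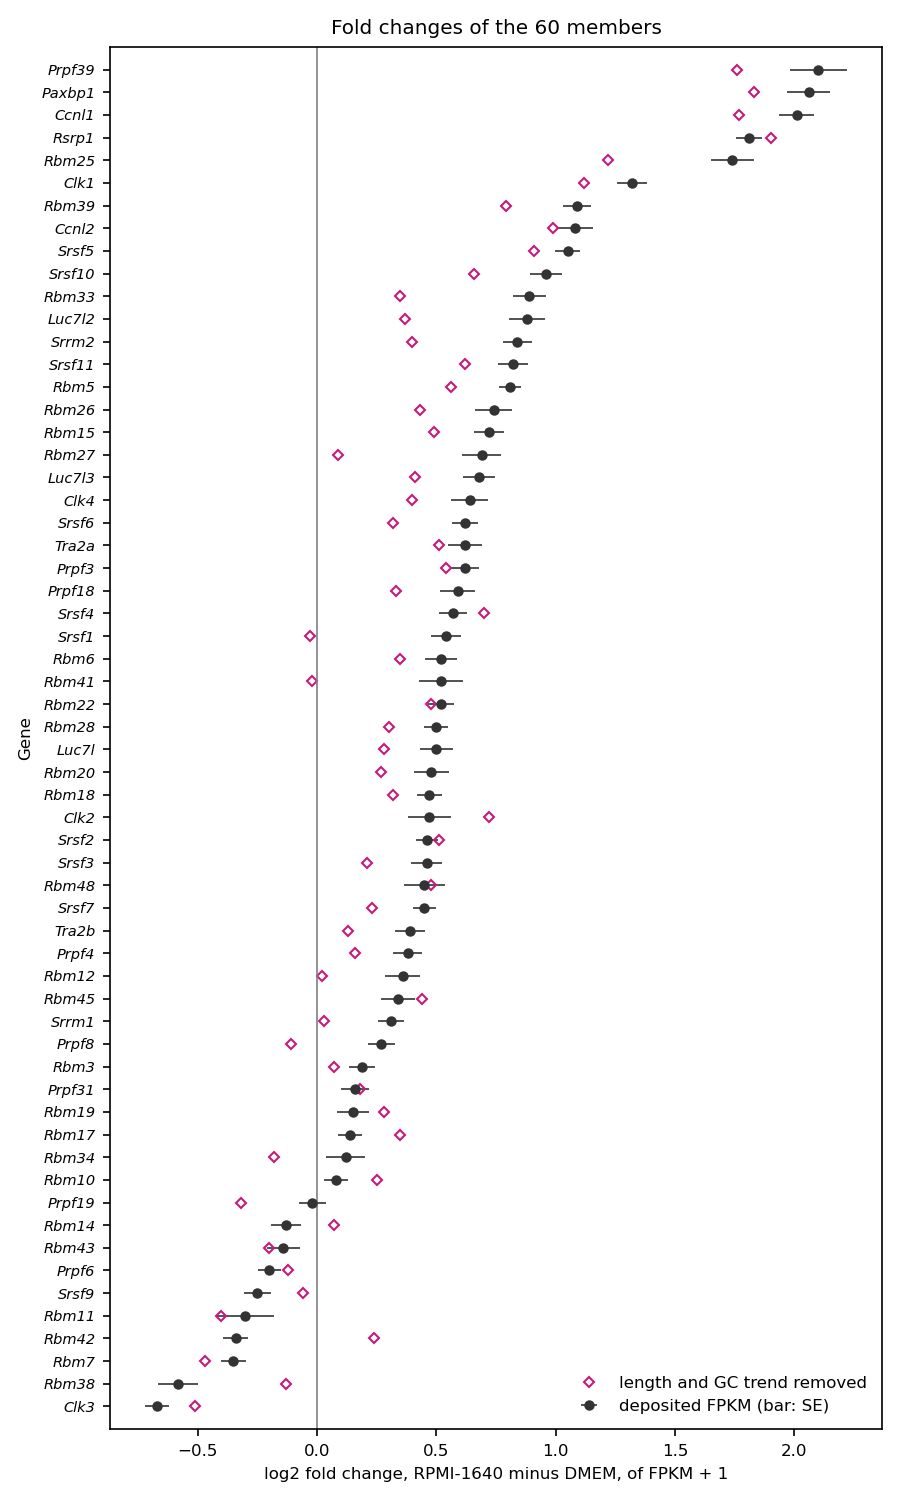
Difference in log2(FPKM + 1) of each of the 60 members, with RPMI-1640 above DMEM to the right of 0. Filled circles with bars are the deposited FPKM values and their standard errors from limma, and open diamonds the values after a trend with gene length and GC content was removed from each library; Prpf39, Paxbp1 and Ccnl1 lie above 2 and Clk3 is lowest at -0.67.

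Fold changes in this table followed gene length and base composition. Across 10323 tested genes longer genes tended to be higher in RPMI-1640 (Spearman correlation 0.464) and GC-rich genes lower (-0.469), as a description over genes that share the same libraries. The members had a median GC content of 45.7%, below the 49.7% of all tested genes, and a median length of 3073 bases, against 2838 bases. Among the 60 members the same correlations were -0.46 for GC content, 0.26 for length and -0.14 for mean FPKM. With the trend removed from every library, 43 members passed as higher, against 37.2% of tested genes, 8 as lower, against 36.8%, and 9 did not pass, with a median of 0.33. Values with the trend removed are therefore given beside named genes whose call or direction they change, or that they move by more than 1.5 times.

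The largest differences among the members were those of Prpf39, Paxbp1, Ccnl1, Rsrp1 and Rbm25, which differ in what they do. Ccnl1, cyclin L1, stood at 9.73, 11.1 and 8.98 FPKM in DMEM and at 44.3, 44.3 and 40.2 FPKM in RPMI-1640. Every RPMI-1640 library was above every DMEM library, and the mean was 4.32-fold higher (log2 fold change 2.01, SE 0.074). Paxbp1, a nuclear partner of PAX3 and PAX7 in muscle precursors of the mouse, stood at 3.82, 3.85 and 2.92 FPKM in DMEM and at 19.0, 18.3 and 16.4 FPKM in RPMI-1640, 5.07-fold higher (2.06, SE 0.091). Prpf39, a component of the U1 snRNP known from yeast, stood at 3.54, 4.26 and 2.76 FPKM and at 18.8, 20.1 and 16.1 FPKM, 5.20-fold higher (2.10, SE 0.12). DMEM replicate 3 was the lowest library for Ccnl1, Paxbp1 and Prpf39, and the media did not overlap. Rsrp1, an arginine- and serine-rich protein, stood at 10.6, 11.1 and 11.6 FPKM in DMEM and at 42.6, 42.6 and 39.6 FPKM in RPMI-1640, 3.74-fold higher (1.81, SE 0.056). Rbm25, a splicing regulator with an arginine-glutamate-rich domain that associates with the U1 snRNP, stood at 11.7, 10.5 and 8.84 FPKM and at 37.1, 39.4 and 33.8 FPKM, 3.55-fold higher (1.74, SE 0.089), again without overlap. With the trend removed these log2 fold changes were 1.77 for Ccnl1, 1.83 for Paxbp1, 1.76 for Prpf39, 1.90 for Rsrp1 and 1.22 for Rbm25. Ordered by log2 fold change among all 10624 tested genes, Prpf39 was number 4, Paxbp1 number 5, Ccnl1 number 6, Rsrp1 number 10 and Rbm25 number 15.

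In GRCm38 these genes lie on chromosome 3 (Ccnl1, minus strand, 65946151 to 65958249), chromosome 16 (Paxbp1, minus strand, 91014037 to 91044543), chromosome 12 (Prpf39, plus strand, 65036333 to 65063386), chromosome 4 (Rsrp1, plus strand, 134923592 to 134927671) and chromosome 12 again (Rbm25, plus strand, 83631236 to 83683123). Of the exons of Paxbp1, 20.7% overlapped 4930404I05Rik, of those of Ccnl1 7.4% overlapped Gm37305, and of those of Prpf39 5.0% overlapped Fkbp3. Reads there could belong to either gene, since no source used here states a strand setting.

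The CLK kinases changed places. Clk1 stood at 11.1, 11.6 and 10.3 FPKM in DMEM and at 28.8, 30.3 and 27.7 FPKM in RPMI-1640, 2.63-fold higher (log2 fold change 1.32, SE 0.061). Clk3 stood at 37.3, 36.2 and 38.6 FPKM in DMEM and at 23.1, 22.3 and 23.7 FPKM in RPMI-1640, 1.62-fold higher in DMEM (-0.67, SE 0.050). The libraries of the media did not overlap for either gene. The level of Clk1 was 0.30, 0.32 and 0.27 of that of Clk3 in the DMEM libraries and 1.25, 1.36 and 1.17 of it in the RPMI-1640 libraries, so that Clk3 was above Clk1 in every DMEM library and below it in every RPMI-1640 library. Clk4 was 1.62-fold higher in RPMI-1640 (8.05, 9.04 and 8.59 FPKM against 14.8, 14.6 and 12.3 FPKM), with a log2 fold change of 0.64, or 0.40 with the trend removed. Clk2, the lowest of the kinases, stood at 2.20, 1.68 and 1.57 FPKM in DMEM and 2.85, 2.89 and 2.92 FPKM in RPMI-1640 (0.47, or 0.72 with the trend removed). It rested on 144 to 304 reads per library. The summed level of the 4 kinases was 1.17-fold higher in RPMI-1640 (58.7 ± 0.282 FPKM against 68.8 ± 1.84 FPKM, SD, n = 3 libraries a medium). The exons of Clk3 overlapped those of Edc3 for 15.2% of their length.

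Cyclin L2, which like cyclin L1 pairs with CDK11, differed less than its paralog. Ccnl2 stood at 8.82, 8.90 and 8.59 FPKM in DMEM and at 20.6, 21.2 and 17.3 FPKM in RPMI-1640, 2.25-fold higher (log2 fold change 1.08, SE 0.075). The level of Ccnl1 was 1.05 to 1.25 times that of Ccnl2 in the DMEM libraries and 2.09 to 2.32 times it in the RPMI-1640 libraries.

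**Figure D2:**
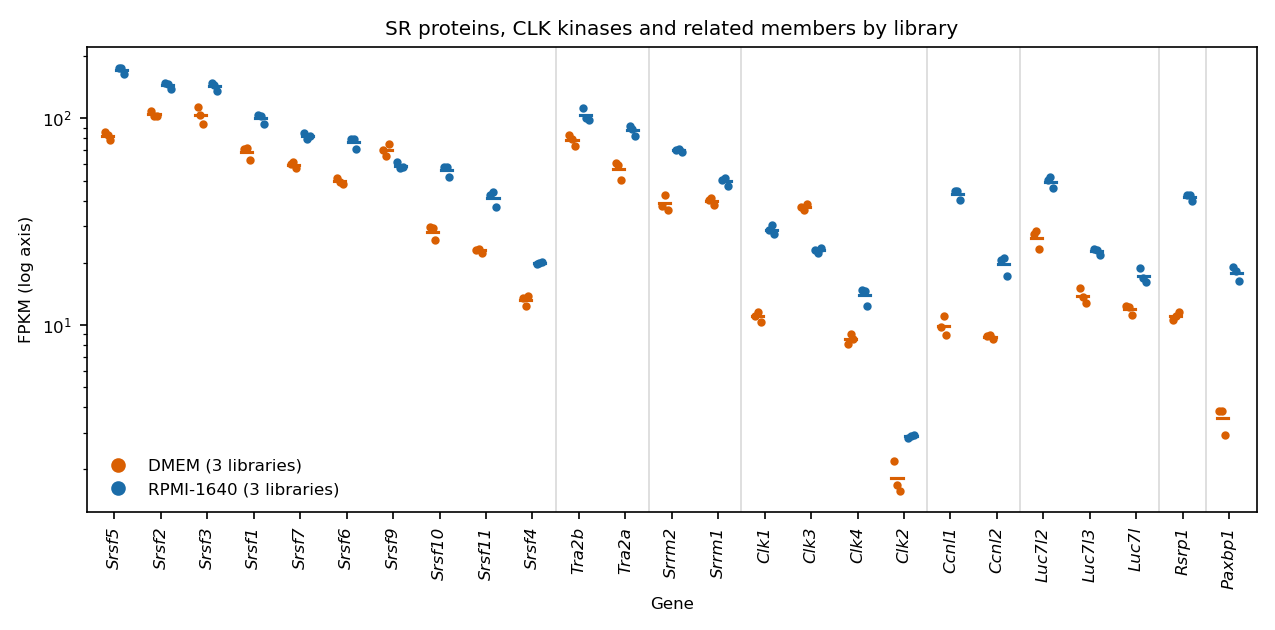
FPKM on a log axis of the 25 members outside the Rbm and Prpf groups, 1 point per library and a bar at the mean of the 3 libraries of a medium, orange for DMEM and blue for RPMI-1640. Clk3 and Srsf9 are the genes whose DMEM libraries lie above their RPMI-1640 libraries.

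Of the 10 SR protein genes, 9 passed as higher and Srsf9 as lower in RPMI-1640, against 40.6% and 35.4% of all tested genes, with a median log2 fold change of 0.56. After trend removal 8 passed as higher and 0 as lower, against 37.2% and 36.8%, with a median of 0.41. Srsf5, an SR protein whose mRNA responds to insulin and growth signals in rat liver, differed most, at 86.0, 82.9 and 78.2 FPKM in DMEM and 175, 175 and 164 FPKM in RPMI-1640. That is 2.08-fold higher, with a log2 fold change of 1.05 (SE 0.051). Srsf10, which acts as a splicing repressor once dephosphorylated after heat shock, stood at 29.8, 29.5 and 25.7 FPKM and at 58.4, 57.9 and 52.0 FPKM, 1.98-fold higher (0.96, SE 0.067). Srsf11 (0.82, SE 0.063), Srsf6 (0.62, SE 0.055) and Srsf4 (0.57, SE 0.059) came next; Srsf6 was at 0.32 with the trend removed. Of the exons of Srsf4, 43.0% overlapped those of Gm12992, so its level is uncertain.

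Srsf2, also called SC35, which marks nuclear speckles, stood at 109, 103 and 103 FPKM in DMEM and at 148, 147 and 139 FPKM in RPMI-1640 (log2 fold change 0.46, SE 0.047), and 25.3% of its exons overlapped those of Mettl23 and Mfsd11. Srsf3, the smallest SR protein, stood at 113, 104 and 93.9 FPKM and at 149, 145 and 136 FPKM (0.46, SE 0.065, or 0.21 with the trend removed), and Srsf7, a zinc-knuckle SR protein that also helps mRNA export, at 60.2, 61.5 and 57.4 FPKM and at 84.6, 79.7 and 81.7 FPKM (0.45, SE 0.047, or 0.23). For these genes too the media did not overlap. Srsf1, the founding SR protein and a known proto-oncogene, stood at 71.1, 72.0 and 62.7 FPKM in DMEM and at 104, 103 and 93.6 FPKM in RPMI-1640 (0.54, SE 0.063). With the trend removed its log2 fold change was -0.03 and did not pass. Srsf9 stood at 70.3, 66.0 and 74.8 FPKM in DMEM and at 61.8, 57.2 and 58.2 FPKM in RPMI-1640 (-0.25, SE 0.056), and did not pass with the trend removed (-0.06) or after scaling each library to the same total (-0.09).

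The order of the SR proteins by mean FPKM therefore differed between the media. In DMEM it was Srsf2, Srsf3, Srsf5, Srsf9, Srsf1, Srsf7, Srsf6, Srsf10, Srsf11 and Srsf4, and in RPMI-1640 Srsf5, Srsf2, Srsf3, Srsf1, Srsf7, Srsf6, Srsf9, Srsf10, Srsf11 and Srsf4. The level of Srsf5 was 0.76 to 0.80 times that of Srsf2 in DMEM and 1.18 to 1.19 times it in RPMI-1640. Neighbours in the order were not always apart: Srsf2 and Srsf3 overlapped within each medium, as did Srsf9 and Srsf1 in DMEM and Srsf9 and Srsf10 in RPMI-1640. Summed over the 10 genes, SR protein mRNA was 1.48-fold higher in RPMI-1640 (604 ± 23.5 FPKM against 895 ± 36.7 FPKM, SD, n = 3).

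The SR-like and SR-related members described next, 2 Tra2 and 2 Srrm genes, passed as higher, against 40.6% of all tested genes. With the trend removed 2 Tra2 genes and 1 Srrm gene passed as higher, against 37.2%. Tra2a and Tra2b, homologs of the fly sex-determination splicing factor transformer-2, stood at 60.5, 59.2 and 50.2 FPKM against 91.9, 88.9 and 82.0 FPKM, and at 83.4, 79.5 and 73.1 FPKM against 112, 100 and 97.9 FPKM, DMEM first. Their log2 fold changes were 0.62 (SE 0.071) and 0.39 (SE 0.063), and that of Tra2b was 0.13 with the trend removed. Srrm2, a very large scaffold protein of nuclear speckles, rose from 37.7, 42.6 and 36.0 FPKM to 70.5, 71.2 and 68.8 FPKM (0.84, SE 0.060), a difference that was 0.40 with the trend removed. Srrm1, a splicing coactivator that works with Srrm2, had a log2 fold change of 0.31 (SE 0.053) and did not pass with the trend removed (0.03).

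The Luc7l genes encode relatives of yeast Luc7, a U1 snRNP protein that acts in the choice of the 5′ splice site. Luc7l2 stood at 27.5, 28.6 and 23.2 FPKM in DMEM and at 50.3, 51.9 and 46.2 FPKM in RPMI-1640 (log2 fold change 0.88, SE 0.075), Luc7l3 at 15.1, 13.7 and 12.7 FPKM and at 23.4, 23.1 and 21.8 FPKM (0.68, SE 0.067), and Luc7l at 12.3, 12.2 and 11.2 FPKM and at 18.9, 16.8 and 16.1 FPKM (0.50, SE 0.070). For each of the 3 genes every RPMI-1640 library was above every DMEM library, as for 42.2% of tested genes. All 3 passed as higher, against 40.6% of tested genes. With the trend removed they were at 0.37, 0.41 and 0.28 and still passed, against 37.2%. Of the exons of Luc7l2, 18.9% overlapped those of Gm26699.

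The Rbm genes share an RNA-recognition motif and a naming scheme. Of 27, 18 passed as higher, 4 as lower and 5 did not pass, beside 40.6% higher and 35.4% lower of all tested genes, with a median log2 fold change of 0.45. Trend removal left 17 that passed as higher and 4 as lower, beside 37.2% and 36.8%, with a median of 0.28. After Rbm25 the highest was Rbm39, a U2AF-like splicing coactivator, at 42.8, 42.5 and 37.3 FPKM in DMEM and 89.5, 89.9 and 84.1 FPKM in RPMI-1640, 2.15-fold higher (1.09, SE 0.059). Rbm33 (0.89, SE 0.070, or 0.35 with the trend removed), Rbm5 (0.81, SE 0.046), Rbm26 (0.74, SE 0.076, or 0.43), Rbm15 (0.72, SE 0.064) and Rbm27 (0.69, SE 0.082) followed. Rbm5 regulates exons of apoptosis genes, and Rbm15 recruits the m6A methyltransferase to RNA. Rbm26 and its paralog Rbm27 act in the decay of polyadenylated nuclear RNA in human cells, and Rbm27 did not pass with the trend removed (0.09).

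The Rbm members that passed as lower were Rbm38, Rbm7, Rbm42 and Rbm11. Rbm38, a p53 target that stabilises mRNAs, stood at 37.9, 38.2 and 48.8 FPKM in DMEM and at 26.5, 27.1 and 28.1 FPKM in RPMI-1640, 1.53-fold higher in DMEM (log2 fold change -0.58, SE 0.084). DMEM replicate 3 was its highest library, and the gene did not pass with the trend removed (-0.13). Rbm7, a subunit of the nuclear exosome targeting complex, stood at 42.3, 40.5 and 37.9 FPKM and at 31.7, 30.8 and 31.3 FPKM (-0.35, SE 0.052). Rbm42 (-0.34, SE 0.052) passed as higher with the trend removed (0.24), and 92.4% of the 32-base words of its transcript also occurred in transcripts of other genes, so its level is uncertain. The trend used a recovered length of 850.5 bases for Rbm42, which can be off by a whole factor, so its trend-removed value is uncertain too. The log2 fold change of Rbm11 was -0.30 (SE 0.12) at 59 to 140 reads per library. It lost its call without DMEM replicate 2 (-0.19), without RPMI-1640 replicate 3 (-0.18), after scaling to the same total (-0.20), without the minimum on FPKM, and in voom on the recovered reads (-0.47). Rbm14, a paraspeckle protein, and Rbm43 stood at log2 fold changes of -0.13 and -0.14 and did not pass, but both passed as lower with the replicate number as a block. Rbm14 also passed without DMEM replicate 2 (-0.17) or RPMI-1640 replicate 3 (-0.18), and stood at 0.03 after scaling and 0.07 with the trend removed. Rbm43 passed as lower with the trend removed (-0.20) and stood at 0.01 after scaling.

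Of the 8 Prpf genes, named after yeast pre-mRNA processing factors, 6 passed as higher and Prpf6 as lower, with a median of 0.33. After trend removal 5 passed as higher and 3 as lower, with a median of 0.17; the shares over all tested genes are those given for the Rbm genes. Prpf39 stood apart from the rest, whose log2 fold changes lay at or under 0.62. Prpf3, a protein of the U4/U6 snRNP, was next (15.1, 13.7 and 15.4 FPKM in DMEM, 23.2, 23.4 and 23.0 FPKM in RPMI-1640, 0.62, SE 0.057). Prpf6, which bridges the U4/U6 and U5 snRNPs, stood at 46.0, 44.3 and 46.9 FPKM and at 38.3, 40.3 and 40.7 FPKM (-0.20, SE 0.048, or -0.12 with the trend removed). The call was lost after scaling, where the log2 fold change of Prpf6 was -0.04. Prpf19, a ubiquitin ligase of the activated spliceosome, was at 26.4, 26.2 and 28.6 FPKM and at 26.4, 25.5 and 28.3 FPKM, and the media overlapped. Its log2 fold change of -0.02 (SE 0.057) was 0.14 after scaling, where it passed as higher, and -0.32 with the trend removed, where it passed as lower. Prpf8, the largest core protein of the U5 snRNP and the member with the most reads, had a log2 fold change of 0.27 (SE 0.058) and passed as lower with the trend removed (-0.11).

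The difference between the media was larger than the spread within them for most members. Every RPMI-1640 library was above every DMEM library for 47 members, where 42.2% of tested genes showed this, and below it for 8, where 36.7% did. The median coefficient of variation of a member's FPKM over the 3 libraries was 6.23% in DMEM and 4.26% in RPMI-1640. The replicates of a medium were not alike for the members, which the choice of members did not use. DMEM replicate 3 was the lowest of the 3 DMEM libraries for 39 members (65.0%, against 47.4% of tested genes), and RPMI-1640 replicate 3 the lowest of its medium for 40 members (66.7%, against 40.7%). The median deviation of the members from the mean of the medium was -0.064 in DMEM replicate 3 and -0.051 in RPMI-1640 replicate 3 on the log2 scale, against -0.021 and -0.006 for all tested genes. DMEM replicate 3 is also the only library titled L3, the others being titled L2, and the part of that code was not tested. Without DMEM replicate 3, 48 members passed as higher, and without RPMI-1640 replicate 3, 46.

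**Figure D3:**
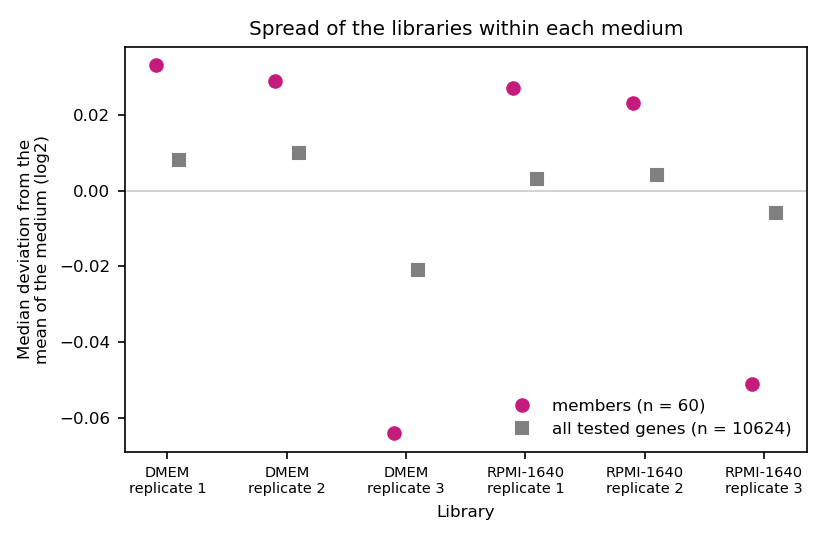
Median deviation of each library from the mean of its medium, on the log2(FPKM + 1) scale, for the 60 members (circles) and for all 10624 tested genes (squares). In each medium replicate 3 lies below 0, at -0.064 and -0.051 for the members.

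Many members, but not all, have features of transcript structure that the expression values did not define. In GENCODE release M21, 37 of the 60 members (61.7%) have an annotated transcript marked for nonsense-mediated decay, the pathway that destroys mRNAs with an early stop codon, against 30.7% of 10289 protein-coding tested genes. The share was 9 of 10 for Srsf genes, and each Clk, Luc7l, Srrm, Tra2 and Ccnl member has such a transcript. Among Rbm genes 11 of 27 (40.7%) and among Prpf genes 3 of 8 (37.5%) do, nearer to the share of all protein-coding tested genes. A retained-intron transcript is annotated for 47 members (78.3%), against 62.3%. These shares were not adjusted for the number of annotated transcripts per gene. The median log2 fold change was 0.54 in the 37 members with a transcript for nonsense-mediated decay and 0.36 in the 23 without, or 0.40 and 0.24 with the trend removed. Those without are mostly Rbm and Prpf genes, whose medians were 0.45 and 0.33, against 0.62 in the other members. The contrast chose the members, so nothing is read from this difference. Gene-level FPKM do not say which transcript the reads came from.

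Promoters of 53 members were held in the RefSeq table used (GRCm38.p6, from 250 bases before to 50 after the start site). A palindrome known from housekeeping promoters, in capitals in the Rbm and Srsf10 sequences below, was found in 4 members (7.5%), against 1.3% of 8343 tested genes with a promoter and 0.5% of all promoters in the table. The cAMP response element TGACGTCA was found in 3 (5.7%, against 3.8% and 1.8%). Both motifs read the same on either strand. The ETS site CCGGAAGT was found in 9.4% of members and 10.1% of tested genes, the E-box CACGTG in 9.4% and 12.3%, the NRF1 palindrome in 5.7% and 2.6%, and the YY1 site AAGATGGCG in 0.0% and 4.1%, each on either strand. These are matches of letters and say nothing of binding. The stretches around the palindrome and the cAMP response element are shown because Rbm39, Srsf10, Ccnl1 and Clk4 are among the higher members. This does not set these motifs apart. The E-box was found in Prpf39, the NRF1 palindrome in Paxbp1 and the ETS site in Srsf5, all higher members, and the ETS site also in Prpf6, a lower member. A link between a motif and the fold changes was not tested. Each stretch shown is given 5′ to 3′ on the strand of the gene with the motif in capitals.
Rbm39, chr2:156180213-156180302, minus strand: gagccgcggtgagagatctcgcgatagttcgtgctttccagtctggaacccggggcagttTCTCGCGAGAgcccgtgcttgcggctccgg
Srsf10, chr4:135856026-135856100, plus strand: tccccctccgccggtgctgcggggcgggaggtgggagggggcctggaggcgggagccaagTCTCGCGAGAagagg
Rbm26, chr14:105177292-105177381, minus strand: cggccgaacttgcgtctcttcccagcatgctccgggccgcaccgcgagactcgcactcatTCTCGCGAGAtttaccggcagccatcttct
Rbm15, chr3:107333457-107333539, minus strand: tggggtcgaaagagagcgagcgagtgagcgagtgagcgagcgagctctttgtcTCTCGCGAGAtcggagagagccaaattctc
Ccnl1, chr3:65958240-65958327, minus strand: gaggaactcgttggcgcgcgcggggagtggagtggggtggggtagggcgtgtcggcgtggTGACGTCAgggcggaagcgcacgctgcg
Clk4, chr11:51262989-51263076, plus strand: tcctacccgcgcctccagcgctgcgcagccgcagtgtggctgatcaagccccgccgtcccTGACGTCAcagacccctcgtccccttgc
Tra2a, chr6:49264052-49264139, minus strand: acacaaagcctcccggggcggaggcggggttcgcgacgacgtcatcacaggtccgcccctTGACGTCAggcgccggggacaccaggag
The palindrome begins 4 bases before the start site in Rbm39, 7 before it in Rbm26 and 197 before it in Rbm15, and lies after the start site in Srsf10. The cAMP response element begins 18 bases before the start site in Ccnl1, 27 in Tra2a and 65 in Clk4.

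Other genes outside the symbol patterns, on lists drawn up for splicing and linked RNA pathways, were mostly higher. The lists were chosen with earlier results of these data known, and most genes named from them have the largest changes. Their counts and p-values are therefore a description and not a second line of evidence. The listed genes are called other splicing genes here, although some act in RNA decay or export. Of 112 tested genes on 7 lists, 73 passed as higher in RPMI-1640 and 10 as lower, where 40.6% and 35.4% of all tested genes did, with a median log2 fold change of 0.39 against 0.03. After trend removal 69 passed as higher and 20 as lower, where 37.2% and 36.8% of all tested genes did, with a median of 0.20 against 0.00. The same shares of all tested genes are the background for the counts of each list below.

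**Figure D4:**
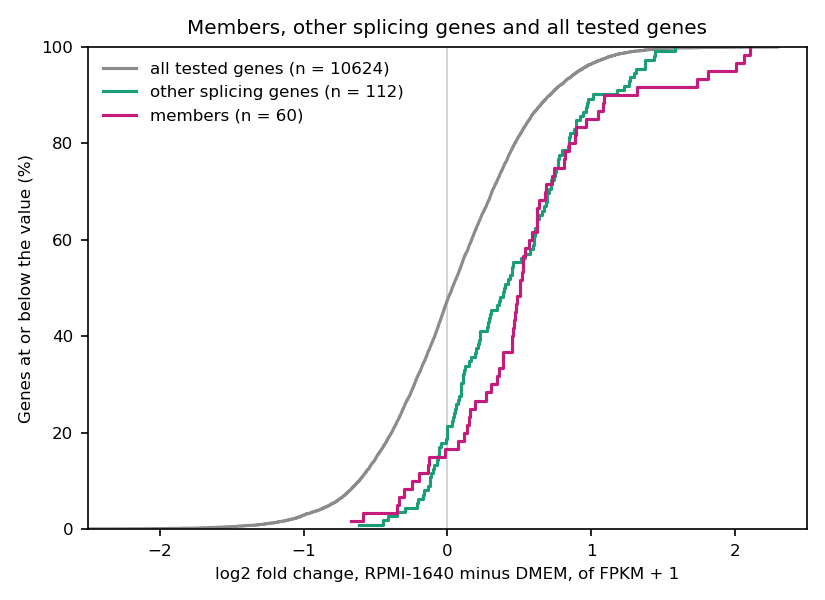
Cumulative share of genes by log2 fold change, RPMI-1640 minus DMEM, for the 60 members, the 112 other splicing genes and all 10624 tested genes. The curves of the members and of the other splicing genes lie to the right of that of all genes, with medians of 0.50, 0.39 and 0.03.

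On a list of kinases, phosphatases and import receptors drawn up for SR proteins, 7 of 11 genes passed as higher and 2 as lower (Dyrk1b at -0.61 and Ppp1ca at -0.35). The median was 0.22, or 0.08 with the trend removed. Whether each listed gene acts on SR proteins was not tested. In the fit without the trend 5 passed as higher and 3 as lower. Removing the trend left Ppp1ca, a catalytic subunit of a phosphatase, at 0.06 and not called. Tnpo1, the import receptor transportin 1, was 1.99-fold higher in RPMI-1640 (log2 fold change 0.98, limma adjusted p = 1.55e-06, higher in 3 of 3 libraries), but 0.28 with the trend removed. Tnpo3, the other import receptor on the list, stood at 0.61 (limma adjusted p = 9.05e-07), or 0.37 with the trend removed. Dyrk1a, a kinase of the same branch as the CLK family, stood at 0.84 (adjusted p = 1.11e-06, limma), or 0.48 with the trend removed, and Srpk2, a cytoplasmic SR protein kinase, at 0.75 (adjusted p = 3.39e-06, limma), or 0.22 with the trend removed.

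Among 38 genes listed as other proteins with arginine-serine stretches, 25 passed as higher and 5 as lower, with a median of 0.53, or 0.18 with the trend removed. The label was not checked against protein sequences, and may not hold for every gene on the list. Trend removal left 23 higher and 5 lower. Ppig, a nuclear cyclophilin, stood at 5.15, 4.90 and 3.90 FPKM in DMEM and at 14.1, 15.0 and 13.6 FPKM in RPMI-1640 (log2 fold change 1.44, limma adjusted p = 9.49e-08), or 0.74 with the trend removed. Pnisr stood at 6.82, 6.60 and 6.42 FPKM and at 18.9, 20 and 17.2 FPKM (1.37, limma adjusted p = 2.63e-08). Srek1, a splicing regulator with arginine-glutamate and arginine-serine stretches, stood at 3.35, 3.21 and 2.63 FPKM and at 9.26, 9.56 and 8.41 FPKM (1.31, limma adjusted p = 1.37e-07), or 0.51 with the trend removed. The media did not overlap for any of the 3.

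Of 12 factors that recognise the branch point and the 3′ splice site, 4 passed as higher and Sf3b3 (-0.30, or -0.54 with the trend removed) as lower, with a median of 0.03. After trend removal 10 passed as higher and 2 as lower, with a median of 0.24. Sf3b1, the subunit of the U2 snRNP that contacts the branch point and is mutated in uveal melanoma, stood at 74.0, 79.0 and 68.4 FPKM in DMEM and at 121, 119 and 118 FPKM in RPMI-1640 (log2 fold change 0.69, limma adjusted p = 6.01e-07), or 0.16 with the trend removed. Sf1, the branch point binding protein, was at 0.54 (limma adjusted p = 5.67e-07) and Zrsr2, of the minor spliceosome, at 0.42 (limma adjusted p = 0.000422), or 0.21 with the trend removed.

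The Rbm and Prpf genes whose names fall outside the number pattern had 11 of 15 passing as higher and Prpf38a as lower, with a median of 0.30, or 0.03 with the trend removed. Trend removal left 6 higher and 4 lower. Prpf38b, a spliceosomal protein, was 2.72-fold higher (1.38, limma adjusted p = 1.12e-08), Rbms1 2.00-fold (0.96, limma adjusted p = 2.41e-07) and Rbmx, an X-linked hnRNP, 1.94-fold (0.92, limma adjusted p = 9.45e-08). Among splicing factors known for tissue-regulated exons, 15 of 17 passed as higher and 0 as lower, with a median of 0.63. After trend removal 11 passed as higher and 5 as lower, and the median was 0.31. Mbnl1, a muscleblind protein sequestered in myotonic dystrophy, stood at 14.7, 15.0 and 12.4 FPKM in DMEM and at 41.5, 39.9 and 37.9 FPKM in RPMI-1640 (log2 fold change 1.44, limma adjusted p = 2.66e-08), or 0.89 with the trend removed. Tia1, which promotes recognition of weak 5′ splice sites, was at 1.26 (limma adjusted p = 1.6e-07) and Ptbp2, the neural polypyrimidine-tract binding protein, at 1.23 (limma adjusted p = 1.45e-07), or 0.74 with the trend removed.

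Nonsense-mediated decay factors were higher for 7 of 12 and lower for Dhx34 (-0.21, but 0.06 and not called after trend removal), with a median of 0.54, or 0.38 after trend removal, which left 9 higher and 0 lower. Smg1, the kinase that phosphorylates the helicase Upf1, stood at 3.76, 4.75 and 3.26 FPKM in DMEM and at 13.3, 14.5 and 13.1 FPKM in RPMI-1640 (log2 fold change 1.58, limma adjusted p = 1.15e-07), or 0.60 with the trend removed. Upf2, a core decay factor that binds Upf1, was at 0.90 (limma adjusted p = 4.98e-07), or 0.48 with the trend removed. Of 8 exon junction complex and export genes, 5 passed as higher and 0 as lower, with a median of 0.25, or 0.36 with the trend removed. Trend removal left 6 higher and Ncbp2 lower (-0.24). Alyref, an mRNA export adaptor, stood at 51.5, 50 and 52.0 FPKM in DMEM and at 120, 118 and 113 FPKM in RPMI-1640 (log2 fold change 1.18, limma adjusted p = 6.05e-09). Upf3b, which joins the complex to decay factors and stands on both lists, was at 0.84 (limma adjusted p = 1.02e-06) and Casc3 at 0.45 (limma adjusted p = 1.61e-05).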

How the data were processed

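RNA of 6 B16F10 libraries was extracted with Trizol and 2 µg went into SMARTer mRNA-seq libraries, per the labels' protocols. The deposited table gives FPKM, computed by the authors for each library. The submitters' processing notes name GRCm38 and mm10; no source used here names the aligner, counter, annotation or strand setting. Whole reads were recovered from the FPKM steps (within 0.001) for 10623 of 10624 tested genes, and give each gene's depth and length. They can be off by a whole factor for a gene such as Rbm42.

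The fit used limma 3.58.1 (R 4.3.3) on log2(FPKM + 1) for the 10624 genes whose mean reached 1 FPKM. Medium was its single term, the empirical Bayes step had a mean-variance trend, tests were two-sided, and p-values were adjusted by Benjamini-Hochberg across these genes. This scale understates changes of low genes. The length and GC trend was fitted to each library's deviations from the gene means with natural splines of 5 degrees of freedom, for the 10323 genes with a GC value (GENCODE M21, longest transcript) and a length. The limma fit was tested on simulated data. Python 3.11.15 was used for tables and figures.

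Replicate numbers 1 to 3 were checked for pairing. Deviations from the group means correlated at 0.151, 0.15 and 0.382 between same-numbered libraries, all over 0.1. By that rule, from the data alone, the numbers were taken as pairs for the replicate block, which the main fit left out. The rule does not single out pairs for replicates 1 and 2. DMEM replicate 1 correlated at 0.131 with RPMI-1640 replicate 2, and DMEM replicate 2 at 0.137 with RPMI-1640 replicate 1. With the trend removed the same-numbered correlations were 0.0567, 0.0408 and 0.151, and DMEM replicate 1 stood at 0.0727 with RPMI-1640 replicate 2. The pairing is therefore uncertain.

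The members and lists were chosen with earlier results of these data known. Named are all members outside the Rbm and Prpf groups, the 8 highest and 8 lowest Rbm and Prpf members by log2 fold change, the pattern rows next to the minimum, and up to 3 called genes of each list with the largest change. A gene that this rule names is not reported here. Of the mitochondrial and nuclear noncoding RNAs listed as signs of RNA quality, 1 of 37 was in the table, at 0 in 5 libraries, so none is used. Prpf3, Prpf8, Tnpo3, marker genes and the lower genes of the lists were chosen after their values were seen. Protein sequences were not used here.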

Additional observations from a re-analysis of the deposited data

How the results depend on the processing

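Under the alternatives run, the count of members passing as higher stayed between 43 and 51 and the number of genes called across the whole table between 6555 and 8968. After scaling each library to the same total, the median over all tested genes was 0.18 instead of 0.033, 51.5% of them passed as higher and 25% as lower, 4 members passed as lower, 90 of the other splicing genes as higher and 5 as lower, and the members' median was 0.64, or 0.46 above that of all genes. After removal of the length and GC trend the members' median was 0.33, also with the replicate block, and 20 other splicing genes passed as lower in both fits. Of the 54 members called, 44 kept call and direction there, 8 lost the call and 2, Prpf8 and Rbm42, passed the other way. For Rbm42 the length used in the trend is uncertain. Members whose direction changed were Srsf1 (-0.03), Rbm41 (-0.02), Rbm42 (0.24), Rbm14 (0.07), Prpf8 (-0.11) and Rbm34 (-0.18) with the trend removed, with or without the block; Rbm14 (0.03), Rbm43 (0.01) and Prpf19 (0.14) with the scaling; and Prpf19 (0.02) without DMEM replicate 3 or RPMI-1640 replicate 2, within a range of -0.06 to 0.02 on leaving out 1 library. The cause was not tested. With the replicate block alone 48 members passed as higher, 9 as lower and 8432 genes in all; among named genes it changed the calls of Rbm14 and Rbm43 and no other call. Leaving out 1 library in turn gave 45 to 48 members higher, 7 lower and a median of 0.46 to 0.53. A pseudocount of 0.01, no filter, a minimum of 5 FPKM and voom on the recovered reads, the last chosen after seeing the data, turned no named gene that they tested, and Rbm11 lost its call without the filter and with voom. Depth limits Rbm11 and Clk2 most.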
